A study of Mus musculus with 8 samples.

Results

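The genes described here are 8 genes that mark or control the Sertoli cell, the somatic cell of the seminiferous tubule that surrounds and nourishes the germ cells. They were chosen by name, with earlier results of these data known, and comprise the transcription factors *Sox9*, *Sox8*, *Wt1*, *Gata4*, *Dmrt1* and *Nr5a1*, the hormone receptor gene *Fshr* and the hormone gene *Amh*. All 8 were present among the 54532 genes of the deposited table, and all 8 were among the 12141 protein-coding genes that were tested. RNA had been sequenced from whole testes as 4 control samples (*Spdyafl/fl*) and 4 mutant samples (*Spdyafl/fl;Ddx4-CreERT2*), given as separate libraries and called control (fl/fl) and cKO libraries below. The number of libraries in each group equals the number of mice that the study describes, so each library was taken as a separate mouse. All mice were on the C57BL/6J background and carried *Spdya* alleles with exon 2 flanked by loxP sites. All received tamoxifen, at RA7.5 and RA8.5 by the labels. Spermatogenesis was synchronized in both groups by a retinoic acid synthesis inhibitor, given daily for 7 days from postnatal day 2, and a retinoic acid injection at postnatal day 9, which is day 0 of the RA scale. Testes were collected at RA11.5, when the first wave of germ cells is in mid-late pachynema. Cre was inserted into the germ cell gene *Ddx4* and was absent from the control mice, so the presence of Cre and the loss of *Spdya* cannot be told apart. The deletion was aimed at germ cells, and the Sertoli cells were measured only as part of the whole testis.

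In the fetal testis SOX9, switched on by SRY, directs supporting cells to become Sertoli cells, and SOX8 has a related function. WT1, GATA4 and the nuclear receptor encoded by *Nr5a1* act before and beside SOX9, and together with it they activate *Amh*, whose product removes the Müllerian ducts. Later DMRT1 maintains the male fate, *Amh* is turned down as Sertoli cells mature, and the receptor for follicle-stimulating hormone carries the pituitary signal that supports their number and function. Several of these genes are not restricted to Sertoli cells: *Nr5a1* and *Gata4* are also expressed in Leydig cells, which make testosterone, and *Dmrt1* is also expressed in spermatogonia.

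Values were deposited as FPKM, which divide the fragments of a gene by its length and by a scaled library size, so that levels of different genes can be compared. The libraries held 13978342 to 19583091 fragments on genes. *Spdya* itself had 19.7 to 23.8 FPKM in the control libraries and 17.7 to 30.5 FPKM in the cKO libraries, so the summed fragments of *Spdya* give no check of the labels, and the groups are used as labelled. Control replicate 1 stood apart from the rest, with 0.464% of its fragments on mitochondrial genes against 2.20% to 3.74% in the other 7 libraries. Results that turn on it are given with and without it. Fewer cells of a type and less RNA per cell cannot be told apart in these bulk libraries. The tissue and stage were checked by germ cell genes. The 10 pachytene spermatocyte genes that were listed summed to 979 to 1894 FPKM per library, while 6 of the 8 round spermatid genes had a mean below 1 FPKM.

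No gene of the 8 was called DE between the groups by limma on log2(FPKM + 0.1), where a call needs a Benjamini-Hochberg adjusted p below 0.05 over all genes tested and an absolute log2 fold change above 1. By the same rule 0.0165% of all genes tested were called. At an unadjusted p below 0.05, limma and limma-voom on the recovered fragments each found 1 of the 8, *Nr5a1*, where 10.9% of all genes tested pass. *Nr5a1* was higher in the cKO libraries, as were 715 of these genes (5.89% of those tested), with 607 lower, a split that became 907 and 360 with the values rescaled to TPM. Values were without overlap between the groups for 1 gene of the 8, again *Nr5a1*, against 3.64% of all genes tested with every cKO library higher. All 8 log2 fold changes were above 0, as were 52% of those of all genes, although *Wt1* was below 0 without control replicate 1 and without cKO replicate 4. The median log2 fold change of the 8 genes was 0.17, against 0.01 for all genes tested.

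**Figure D1:**
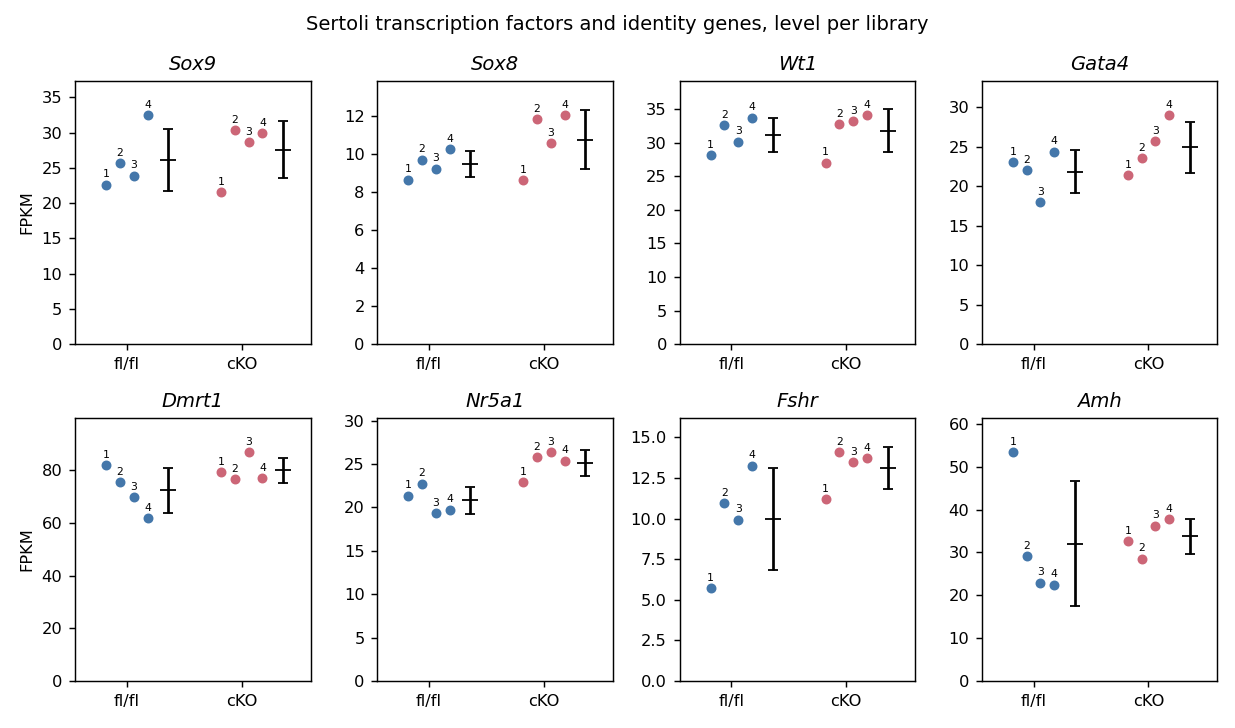
FPKM (linear axes from 0) of the 8 genes in each library, numbered by replicate, with control in blue and cKO in red; the black marks give the mean and SD of 4 libraries. *Nr5a1* is the gene without overlap between the groups, and *Fshr* (5.73 FPKM) and *Amh* (53.5 FPKM) lie apart in control replicate 1.

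The levels of the 8 genes spanned a wide range. *Dmrt1* was highest in 8 of 8 libraries, with a mean of 76.1 FPKM ± 7.58 (SD, n = 8) and a range that did not meet that of any other gene of the group. *Amh* at 32.9 FPKM ± 9.97 and *Wt1* at 31.5 FPKM ± 2.68 (SD, n = 8 each) came next and could not be ordered, since *Amh* was the higher in 4 of 8 libraries. *Sox9* followed at 26.9 FPKM ± 4.00 (SD, n = 8), and its range overlapped that of *Wt1* although *Wt1* was above it in 8 of 8 libraries. *Gata4* at 23.4 FPKM ± 3.22 and *Nr5a1* at 23.0 FPKM ± 2.71 (SD, n = 8 each) also could not be ordered, with *Gata4* the higher in 3 of 8 libraries. *Fshr* at 11.5 FPKM ± 2.80 and *Sox8* at 10.1 FPKM ± 1.32 (SD, n = 8 each) were lowest, and the highest value of either was below the lowest of *Nr5a1*. *Fshr* was above *Sox8* in 7 of 8 libraries, the exception being control replicate 1.

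For the SOX factors the difference between the groups was within the spread of the libraries. *Sox9* (ENSMUSG00000000567, chromosome 11 of GRCm38, 112782224 to 112787760, plus strand) had 22.6, 25.7, 23.9 and 32.4 FPKM in control replicates 1 to 4 and 21.5, 30.3, 28.6 and 29.9 FPKM in cKO replicates 1 to 4. The highest value was in a control library and the lowest in a cKO library, and the groups overlapped throughout. Its log2 fold change was 0.08 (standard error, SE, 0.15; adjusted p = 0.887 by limma), with a 95% interval from -0.25 to 0.41. This value depended on single libraries, being 0.01 without control replicate 1 and 0.19 without cKO replicate 1. *Sox8* (ENSMUSG00000024176, chromosome 17, 25565892 to 25570686, minus strand), the paralogue of *Sox9*, had 8.64, 9.69, 9.21 and 10.2 FPKM in the control libraries and 8.60, 11.8, 10.5 and 12.0 FPKM in the cKO libraries. In 3 of the 4 cKO libraries it was above every control library, and in replicate 1 it was the lowest of all. Its log2 fold change was 0.17 (SE 0.12, adjusted p = 0.665 by limma) and 0.28 without cKO replicate 1. The ratio of *Sox9* to *Sox8* varied little between libraries, from 2.59 to 3.17 in the control libraries and from 2.49 to 2.72 in the cKO libraries.

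Zinc finger proteins are encoded by *Wt1* and *Gata4*. *Wt1* (ENSMUSG00000016458, chromosome 2, 105126529 to 105173616, plus strand), needed to form the gonad and later to keep Sertoli cell identity, had 28.1, 32.6, 30.1 and 33.7 FPKM in the control libraries and 27.0, 32.7, 33.2 and 34.1 FPKM in the cKO libraries. It was the steadiest of the 8 genes, with a coefficient of variation of 8.52% over the 8 libraries. Its log2 fold change was 0.025 (SE 0.11, adjusted p = 0.954 by limma), with a 95% interval from -0.22 to 0.27. *Gata4* (ENSMUSG00000021944, chromosome 14, 63198922 to 63271692, minus strand) had 23.0, 22.1, 18.0 and 24.4 FPKM in the control libraries and 21.4, 23.5, 25.7 and 29.0 FPKM in the cKO libraries. Control replicate 3 was lowest and cKO replicate 4 highest, with the other libraries intermixed. *Gata4* had a log2 fold change of 0.19 (SE 0.13, adjusted p = 0.654 by limma) and 0.10 without control replicate 3.

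*Dmrt1* (ENSMUSG00000024837, chromosome 19, 25505618 to 25604329, plus strand), which encodes a DM domain factor, had 81.8, 75.6, 69.7 and 61.9 FPKM in the control libraries and 79.3, 76.7, 86.8 and 77.1 FPKM in the cKO libraries. Each cKO library was above the control mean of 72.3 FPKM, but control replicate 1 was above 3 of them. The log2 fold change was 0.15 (SE 0.12, adjusted p = 0.699 by limma), 0.21 without control replicate 1 and 0.08 without control replicate 4. Spermatogonia also express *Dmrt1*, and the sum of 10 listed spermatogonial genes was 159 to 220 FPKM in the control libraries and 193 to 208 FPKM in the cKO libraries. A large part of it came from *Uchl1*, with means of 89.1 FPKM in the control and 111 FPKM in the cKO libraries. None of the 10 was at 0, and 1 was higher and 1 lower at an unadjusted p below 0.05, against 5.89% and 5% of all genes tested. The lower gene was *Stra8*, with 5.92, 4.53, 19.8 and 12.9 FPKM in the control libraries. In the cKO libraries *Stra8* had 2.03 to 4.70 FPKM, so the groups overlapped. Its log2 fold change was -1.46 (SE 0.44, adjusted p = 0.280 by limma). The part of spermatogonia in the level of *Dmrt1* was not tested.

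*Nr5a1* (ENSMUSG00000026751, chromosome 2, 38692656 to 38714542, minus strand), which encodes steroidogenic factor 1, had 21.4, 22.7, 19.4 and 19.8 FPKM in the control libraries and 23.0, 25.8, 26.4 and 25.4 FPKM in the cKO libraries. Every cKO library was above every control library, by a small step between 22.7 and 23.0 FPKM. The means were 20.8 ± 1.56 and 25.1 ± 1.51 FPKM (SD, n = 4 each), a 1.21-fold difference. For *Nr5a1* a log2 fold change of 0.27 (standard error 0.095), with a limma p below 0.05 before adjustment, did not pass after adjustment over all genes (limma adjusted p = 0.348), and the 95% interval ran from 0.06 to 0.48. A single-gene exact permutation test gave p = 0.0286 (two-sided), the smallest p that 4 libraries against 4 allow. Any gene without overlap between the groups gets this p, so it restates the order of the values. Of all genes tested, 3.64% were without overlap and higher in the cKO libraries, and 2.59% were lower. The log2 fold change stayed between 0.24 and 0.32 when single libraries were left out, and the unadjusted limma p was 0.0573 without cKO replicate 3. The antisense gene *Nr5a1os* overlaps *Nr5a1* by 1867 bases and had 0.330 to 1.47 FPKM, so fragments from the shared stretch cannot be told apart unless the counting used strand, which is not given in the sources used here.

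Leydig cells share *Nr5a1* with Sertoli cells. The 8 listed Leydig genes summed to 20.5 to 46.3 FPKM in the control libraries and 33.2 to 51.0 FPKM in the cKO libraries. Of the 5 that could be tested none was called, and 3 were higher at an unadjusted p below 0.05, against 5.89% of all genes tested. The defining genes *Cyp17a1*, *Cyp11a1* and *Insl3* had means of 1.24 FPKM or less in both groups. *Hsd3b1*, a steroid-making enzyme gene, was at 5.76, 8.27, 7.66 and 23.2 FPKM in the control libraries and at 15.8, 19.4, 16.1 and 29.6 FPKM in the cKO libraries. It had a log2 fold change of 1.02 (SE 0.38, adjusted p = 0.390 by limma). *Hsd17b3*, which encodes the enzyme of the last step to testosterone, had a log2 fold change of the other sign, -0.71 (SE 0.36, adjusted p = 0.536 by limma). The part of Leydig cells in the difference of *Nr5a1* was not tested.

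**Figure D2:**
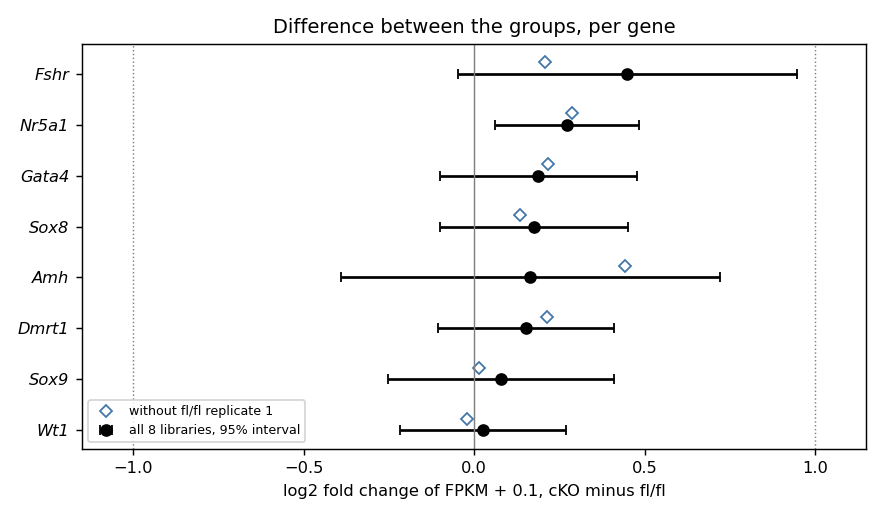
Log2 fold change of each gene (x axis, on the log2(FPKM + 0.1) scale, cKO minus control) with its 95% limma interval over 8 libraries in black, and the value without control replicate 1 as open diamonds; dotted lines mark the threshold of 1. The interval of *Nr5a1*, from 0.06 to 0.48, is the one that does not include 0, and *Fshr* and *Amh* move in opposite directions when that replicate is left out.

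*Fshr* and *Amh*, the hormone receptor and the hormone, varied most between libraries. *Fshr* (ENSMUSG00000032937, chromosome 17, 88985170 to 89200612, minus strand) had 5.73, 11.0, 9.94 and 13.3 FPKM in the control libraries and 11.2, 14.1, 13.5 and 13.7 FPKM in the cKO libraries. Control replicate 1 was lowest by a wide margin, and control replicate 4 lay within the range of the cKO libraries. The means were 9.97 ± 3.15 and 13.1 ± 1.31 FPKM (SD, n = 4 each). The log2 fold change of 0.45 (SE 0.22, adjusted p = 0.520 by limma) was the largest of the group, with a 95% interval from -0.05 to 0.95 and an exact permutation p of 0.0571 (two-sided). Without control replicate 1 it was 0.21, and leaving out control replicate 4 gave 0.61. *Fshr* had the fewest fragments of the 8 genes, 156 in control replicate 1 and up to 484 elsewhere. Counting error alone gives a coefficient of variation of 8.01% at 156 fragments.

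*Amh* (ENSMUSG00000035262, chromosome 10, 80805243 to 80807648, plus strand) had 53.5, 29.2, 23.0 and 22.5 FPKM in the control libraries and 32.6, 28.6, 36.3 and 37.8 FPKM in the cKO libraries. The highest level of all was in control replicate 1, while replicates 3 and 4 were lower than every cKO library and replicate 2, at 29.2 FPKM, lay just above the lowest of them. The log2 fold change was 0.16 (SE 0.25, adjusted p = 0.856 by limma), with a 95% interval from -0.39 to 0.72. Without control replicate 1 it was 0.44 (limma p below 0.05 before adjustment, limma adjusted p = 0.158), and without control replicate 4 it was 0.03. *Amh* is small and lies between other genes: *Sf3a2* ends 319 bases upstream of it on the same strand, and *Jsrp1* lies 848 bases downstream on the other strand. *Sf3a2* had 21.5 to 31.8 FPKM and was not raised in control replicate 1 (23.2 FPKM). *Jsrp1* was highest in that library as well, at 21.9 FPKM against 6.05 to 12.2 FPKM in the other 7. Whether fragments of these neighbours entered the level of *Amh* was not tested.

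**Figure D3:**
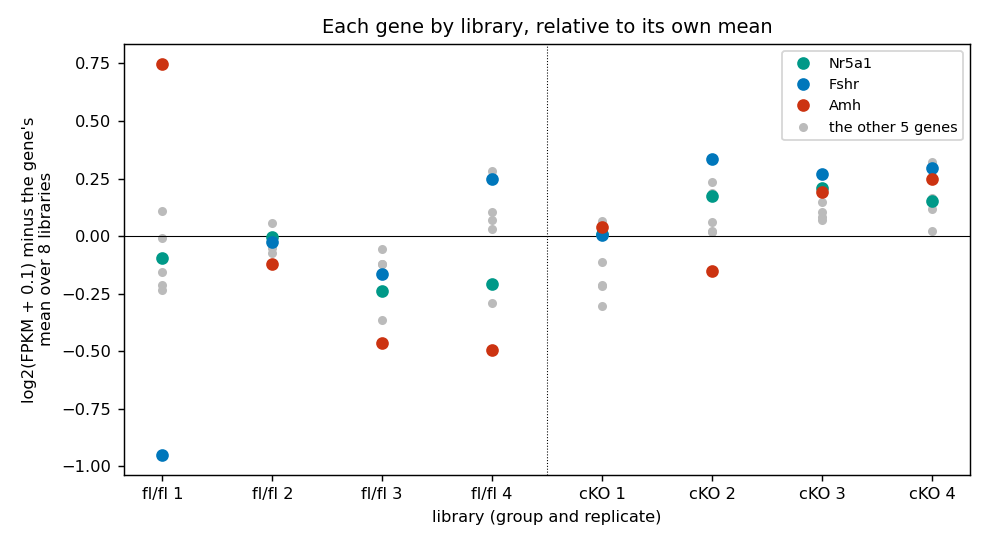
Each of the 8 genes (points) in each library (x axis, group and replicate) as log2(FPKM + 0.1) minus the gene's own mean over the 8 libraries (y axis). In control replicate 1, *Amh* lies 0.75 above and *Fshr* 0.95 below its mean, and all 8 genes lie above their means in cKO replicates 3 and 4.

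The promoters of *Fshr* and *Sox8*, the 2 genes of the group matched in the RefSeq promoter table (build GRCm38.p6), are shown as the 250 bases before the RefSeq transcription start, for the receptor gene that varied between libraries and for the SOX gene whose promoter is itself part of another gene. Capitals mark the letters GATA (bound by GATA factors) and CACGTG (an E-box, bound by helix-loop-helix proteins), both searched on both strands.
*Fshr*, chr17:89200676-89200925, minus strand: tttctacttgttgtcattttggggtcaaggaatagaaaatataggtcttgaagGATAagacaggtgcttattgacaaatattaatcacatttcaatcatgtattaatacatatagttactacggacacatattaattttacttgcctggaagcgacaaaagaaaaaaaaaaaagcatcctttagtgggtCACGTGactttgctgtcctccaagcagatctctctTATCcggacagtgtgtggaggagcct
*Sox8*, chr17:25570687-25570936, minus strand: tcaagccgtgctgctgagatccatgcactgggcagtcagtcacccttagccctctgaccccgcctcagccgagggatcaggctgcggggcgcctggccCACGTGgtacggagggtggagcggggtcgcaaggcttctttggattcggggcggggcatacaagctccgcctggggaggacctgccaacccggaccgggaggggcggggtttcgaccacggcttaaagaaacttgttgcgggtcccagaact

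The *Fshr* window held 2 GATA matches, 193 and 22 bases before the start, and 1 CACGTG match 55 bases before it. GATA is present in 53.6% and CACGTG in 6.02% of the 32851 windows of this length in the table. The *Sox8* window held 1 CACGTG match, 146 bases before the start, and no GATA. The letters ACAAT (a SOX-type motif, in 27.7% of windows) and AAGGTCA (the type bound by steroidogenic factor 1, in 4.08%) were in neither window. The looser E-box CANNTG, which includes CACGTG and is in 66.2% of windows, matched 2 places in *Fshr* and 1 in *Sox8*. The windows differed in base composition, with 36.8% G and C in *Fshr* and 65.6% in *Sox8*. The start used for *Fshr* lies upstream of the end at 89200612 that the deposited table gives. The whole *Sox8* window lies inside the antisense gene *2810468N07Rik* (25570358 to 25575043), which overlaps *Sox8* itself by 329 bases. *2810468N07Rik* had 1.02 to 2.41 FPKM in the control libraries and 1.91 to 3.16 FPKM in the cKO libraries. For this gene the log2 fold change was 0.67 (SE 0.26, adjusted p = 0.487 by limma with all biotypes tested), and fragments of the shared stretch cannot be told apart without strand.

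Other genes of the pathways around the 8 were read from lists of gene names. Of 18 genes of sex determination and Sertoli specification, 10 were tested and none was called DE, with 1 higher and 1 lower at an unadjusted p below 0.05. *Sry*, the Y-linked switch of testis determination, was at 0 in all 8 libraries. *Ptgds*, a prostaglandin D synthase whose product promotes *Sox9* expression in the fetal testis, was low, at 1.06, 1.84, 1.51 and 0.555 FPKM in the control libraries and 3.32, 3.38, 4.14 and 3.64 FPKM in the cKO libraries. The groups did not overlap, as for 1 of the 10 genes tested in this list and 3.64% of all genes tested with every cKO library higher. *Ptgds* had a log2 fold change of 1.58 (SE 0.30, adjusted p = 0.127 by limma), the largest of the 38 pathway genes tested, and of the alternatives tried it was called with array weights only (log2 fold change 1.37, limma adjusted p = 0.0210, with a range of 0.0210 to 0.466 over them). *Nr0b1*, which encodes the repressor DAX1, a partner of the *Nr5a1* product, had the highest mean of this list over the 8 libraries. In the control libraries the mean of *Gadd45g* was higher (23.3 against 23.0 FPKM), but its values spread widely there, from 12.5 to 53.1 FPKM. The sum of the list was highest in control replicate 1, at 153 FPKM. The values of *Nr0b1* were 28.9, 19.9, 23.8 and 19.3 FPKM in the control libraries and 14.4, 17.7, 19.7 and 19.2 FPKM in the cKO libraries. Its log2 fold change of -0.36 (SE 0.15, adjusted p = 0.444 by limma) was opposite in sign to that of *Nr5a1*, and the groups overlapped. Its unadjusted p of 0.0398 became 0.0839 without control replicate 1.

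The opposing ovarian programme was read from 12 listed genes, of which 8 did not pass the filter on low values. The 4 that were tested were *Ctnnb1*, *Axin2*, *Lef1* and *Rspo1*, none was called or had an unadjusted p below 0.05, and *Foxl2*, the factor that maintains granulosa cell fate, had at most 0.127 FPKM. *Ctnnb1* (β-catenin), the highest of the list and used by many cell types, had 110 ± 10.9 and 117 ± 5.42 FPKM (SD, n = 4 each) with a log2 fold change of 0.09 (SE 0.11, adjusted p = 0.816 by limma). *Lef1*, the gene of this list with the smallest p, was at 2.54 ± 0.785 and 1.78 ± 0.456 FPKM (SD, n = 4 each), and its log2 fold change was -0.48 (SE 0.25, adjusted p = 0.538 by limma).

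Downstream of *Fshr*, the listed G protein, adenylyl cyclase, protein kinase A and CREB pathway genes numbered 16, of which 15 were tested. None was called or had an unadjusted p below 0.05, and their log2 fold changes ranged from -0.16 to 0.30. *Prkar1a*, a regulatory subunit of protein kinase A and the highest of the list, had 149 FPKM in control replicate 1, the library with the lowest *Fshr*, and 79.7 to 88.4 FPKM in the other 3 control libraries. A link between *Prkar1a* and *Fshr* was not tested. Neither was the part of Sertoli cells in the whole-testis levels of these genes. The β-arrestin gene *Arrb1*, which had the smallest p of the list, was at 1.16 ± 0.224 and 1.45 ± 0.264 FPKM (SD, n = 4 each; limma adjusted p = 0.638).

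For *Amh*, 9 of 11 listed genes of its receptors, SMADs and ID targets were tested and none was called, with 1 higher at an unadjusted p below 0.05. *Amhr2*, the type 2 receptor of AMH, had 287, 242, 205 and 179 FPKM in the control libraries and 243, 240, 258 and 246 FPKM in the cKO libraries. It was thus at a higher FPKM than its ligand in every library and, like *Amh*, highest in control replicate 1 (log2 fold change 0.14, SE 0.16, adjusted p = 0.815 by limma). *Id3*, an inhibitor of helix-loop-helix factors, was at 8.35, 6.68, 6.22 and 7.77 FPKM in the control libraries and 10.1, 8.64, 10.2 and 13.8 FPKM in the cKO libraries. The groups did not overlap, as for 1 of the 9 tested in this list and 3.64% of all genes tested with every cKO library higher. The log2 fold change was 0.54 (SE 0.16, adjusted p = 0.266 by limma). Over the 4 pathway lists, 38 of 57 genes were tested, of which 0 were called and 3 had an unadjusted p below 0.05, by limma and by limma-voom alike. Of all genes tested, 10.9% had an unadjusted limma p below 0.05.

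Other Sertoli markers were read beside the 8 genes, from a list of 19 of which 17 were tested. None was called. At an unadjusted p below 0.05, 3 (*Tsx*, *Defb19* and *Gdnf*) were higher and 0 lower, against 5.89% and 5% of all genes tested. The median log2 fold change of the 17 was 0.16, next to 0.17 for the 8 genes. *Clu* (clusterin), the most abundant, was at 823 ± 96.6 FPKM in the control libraries and 1056 ± 88.8 FPKM in the cKO libraries (SD, n = 4 each), without overlap between the groups (log2 fold change 0.36, SE 0.19, adjusted p = 0.541 by limma). *Tsx*, an X-linked gene, was at 20.0 ± 3.99 and 31.1 ± 2.27 FPKM (SD, n = 4 each; log2 fold change 0.66, SE 0.15, adjusted p = 0.155 by limma), again without overlap. The groups did not overlap for *Defb19* either. Thus 3 of the 17 were without overlap and higher in the cKO libraries, against 3.64% of all genes tested.

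Genes of other cell types were read beside these values, where 5.89% of all genes tested were higher and 5% lower at an unadjusted p below 0.05. The summed level of the 8 genes was 203 to 245 FPKM in the control libraries and 225 to 261 FPKM in the cKO libraries. The 10 pachytene spermatocyte genes summed to 1235 to 1894 and 979 to 1513 FPKM. All 10 had log2 fold changes below 0, none was called, and 4 were lower at an unadjusted p below 0.05, among them *Ldhc* (524 ± 128 and 313 ± 61.4 FPKM, SD, n = 4 each; limma adjusted p = 0.287) and *Adam3* (6.06 ± 1.92 and 2.97 ± 0.653 FPKM; limma adjusted p = 0.172). The 6 macrophage genes summed to 14.3 to 25.5 FPKM in the control libraries and 27.4 to 34.6 FPKM in the cKO libraries, and all 6 were tested, with 4 higher at an unadjusted p below 0.05. For the 6 peritubular myoid genes the sums were 45.6 to 76.6 and 75.4 to 105 FPKM, with 4 tested and 1, *Acta2*, higher by that measure. Most of these sums came from *Acta2*, with means of 49.5 FPKM in the control and 72.8 FPKM in the cKO libraries. For the 6 endothelial genes the sums were 5.98 to 13.3 and 12.3 to 15.6 FPKM, with 4 tested and 2 higher. None of these somatic genes was called or at 0 in all libraries. The part of these shifts in the values of the 8 genes was not tested.

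**Figure D4:**
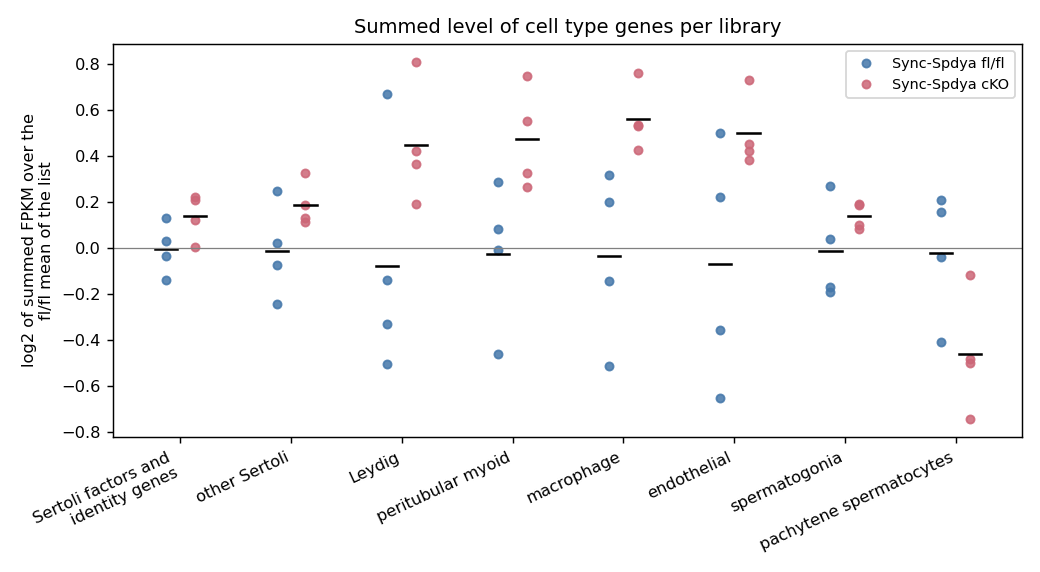
Summed FPKM of each list of cell type genes per library, as log2 over the mean of the 4 control libraries (y axis), with black bars at the mean of each group. The round spermatid list is not drawn. The 8 Sertoli factors and identity genes overlap between the groups (203 to 245 and 225 to 261 FPKM), while the macrophage sums do not (14.3 to 25.5 and 27.4 to 34.6 FPKM).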

How the data were processed

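Whole-testis RNA of 8 mice was sequenced as paired ends, and the authors deposited FPKM values per gene, made by the sequencing company's software, in 1 table and in 8 per-library files equal to it. The submitters' processing notes give the build GRCm38 (mm10). The aligner, the counter and the use of strand are not given in the sources used here. Scaled back by gene length, 100% of the values above 0 were whole numbers of fragments (tolerance 0.02), which gave the fragments per gene. Intervals of fragments cover counting error only. Gene coordinates equalled those of GENCODE vM21 for 7 of the 8 genes, *Fshr* being the exception.

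All genes were fitted with limma 3.58.1 in R 4.3.3 (lmFit, eBayes with trend) on log2(FPKM + 0.1) with group as the single term. Tested were protein-coding genes whose mean exceeded 1 FPKM in each group, the study's filter. FPKM are not counts, so limma replaced the study's DESeq2. On this scale the changes of low genes are understated. Single genes were also compared by exact permutation over the 70 assignments of the libraries (scipy 1.17.1). Within groups, pairs of libraries differed by a chi-square per gene of at least 3.66, above sampling noise, and each library counted as 1 sample. Pairs with control replicate 1 had 52.7 to 71.7, and the other pairs had 3.66 to 18.8. The 8 genes and the lists were chosen with earlier results of these data known. Other genes named have the highest mean or the smallest p of their list, and those beyond this (*Defb19*, *Gdnf*, *Hsd17b3*, *Gadd45g*, *Axin2*, *Rspo1*, *Foxl2*, *Sry*, the defining Leydig genes and the neighbours) were named after their values were seen. Figures were drawn with matplotlib 3.10.9.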

Additional observations from a re-analysis of the deposited data

How the results depend on the processing

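The alternatives were other pseudocounts and filters, centring, TPM, array weights, voom on recovered fragments, eBayes without its trend, a replicate block and each library left out in turn. None of the 8 genes was called DE under any of them. Their largest log2 fold change under any of them was 0.61 (*Fshr* without control replicate 4), below the threshold of 1. Other filters and eBayes without its trend left the log2 fold changes as they were, so these alternatives could not add a call. No adjusted p of the 8 genes was below 0.05 under any of them either. Over all genes, 2 were called as reported, 0 to 3 with each library left out and 57 with array weights, and the 1322 at an unadjusted p below 0.05 became 687 to 1889 and 2543. The 8 genes at an unadjusted p below 0.05, 1 as reported, were 2 with TPM (*Dmrt1* added), 2 with the replicate block (*Fshr* added), 3 with array weights (*Gata4* and *Fshr* added) and 0 to 2 with each library left out: 0 without cKO replicate 3, and 2 without control replicates 1 or 4 or cKO replicate 1. The share of all genes tested that passed also moved. It was 10.9% as reported, 10.4% with TPM, 14.6% with the replicate block and 20.9% with array weights. With all biotypes it was 9.30%. With each library left out it was 5.65% to 15.6%, the highest without control replicate 1. The lowest adjusted p of *Nr5a1* was 0.0734, with array weights, and its highest 0.850. The log2 fold change of *Wt1* ranged from -0.022 to 0.10 with each library left out, below 0 without control replicate 1 and without cKO replicate 4 (-0.010). The other 7 genes kept their direction. Pathway genes called, 0 as reported, were 1 with array weights, and those at an unadjusted p below 0.05, 3 as reported, were 5 with all biotypes (54 tested), 8 with array weights, and 2 to 5 with each library left out, the highest without control replicate 1. The cause was not tested. Same-numbered libraries of the groups deviated together at correlations of 0.0757 to 0.406, 5 of 8 libraries correlated best with their own number, and the labels tie no number to a litter or day, so the libraries were treated as unpaired. The replicate block left the log2 fold changes of the 8 genes as they were, the largest being 0.45. It therefore could not bring any of them above the threshold of 1, and the lack of a call with it says nothing about pairing.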

Other observations

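These values were chosen after the data were seen and carry no test. The ratio of *Amh* to *Fshr* was 9.34 in control replicate 1 and 1.70 to 2.92 in the other 7 libraries. Both genes contribute, since that library has the highest *Amh* and the lowest *Fshr*. The other Sertoli sum was 3464 FPKM there. That sum was above those of the other control libraries (2467 to 2966 FPKM) and within the range of the cKO libraries (3156 to 3655 FPKM). The ratio of *Fshr* to *Sox9* was 0.253, 0.427, 0.416 and 0.409 in the control libraries and 0.519, 0.465, 0.470 and 0.459 in the cKO libraries, without overlap between the groups. It was the 1 of 10 ratios computed without overlap, and the other 9 overlapped. Those 9 include the ratio of *Sox9* to *Sox8* and its inverse, which are the same comparison. Of the ratios to *Sox9*, that of *Sox8* varied least (coefficient of variation 7.25% over 8 libraries) and that of *Amh* most (40.0%).

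The mean log2(FPKM + 0.1) of the 8 genes was lowest in control replicate 3, at -0.21 relative to its mean over the libraries, and highest in cKO replicate 4, at 0.20. In control replicate 3 all 8 genes were below their own means. The protein-coding genes whose levels over the 8 libraries were most like this mean were *Cd151*, *Acaa2*, *St3gal4*, *Slc20a2* and *Prdx3*, with Pearson's r from 0.962 to 0.975. They were picked as the highest of all genes tested, share library and scaling with the 8 genes, and none was called DE.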
